A study of Mus musculus with 12 samples.

Results

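The 10 genes Clec4f, Vsig4, Cd5l, Timd4, Marco, Adgre1, Csf1r, Cd68, C1qa and C1qb were followed as markers of Kupffer cells and of macrophages at large in mouse liver. They were taken by name from the 36047 genes with an annotated transcript, with earlier results of these data known, and all 10 were among the 14670 genes that passed the filter on low counts. Liver RNA was sequenced from 12 adult male C57Bl/6J mice, aged 5 to 6 months, with 3 mice in each of 4 diet groups. The groups were a regular-fat control diet (RF.Ctrl), a regular-fat diet restricted in sulfur amino acids (RF.SAAR), a high-fat control diet (HF.Ctrl) and a high-fat restricted diet (HF.SAAR). Every mouse was fed its diet for 7 days, was housed alone and had no food for 4 h before it was killed. Per the paper, the mice were also given deuterium-labeled water, first by injection and then to drink. All 4 diets lacked cysteine and were matched for nitrogen, so the control mice too were fed a cysteine-free diet. In the restricted diets methionine was lowered and glutamic acid took its place. The regular-fat and the high-fat diets came from different makers. The paper states that mice on high fat ate fewer grams, and so less of all essential amino acids. In comparisons between fat levels, fat content therefore cannot be told apart from maker and amino acid intake. The question was whether these markers differed between the diets in the liver as a whole. Each library came from crushed whole liver, with no sorting of cells, so fewer macrophages and less RNA per macrophage cannot be told apart.

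Kupffer cells are the macrophages that live inside the liver sinusoids. They clear bacteria and debris arriving from the gut, remove aged red blood cells and return their iron to the circulation, and they depend on CSF1 signaling to survive. Cells that settled before birth carry Timd4 beside Clec4f, whereas macrophages that arise later from blood monocytes gain Clec4f first and Timd4 late or not at all. Adgre1 (the F4/80 antigen), Csf1r, Cd68 and the C1q subunits are shared by macrophages of many tissues.

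The sequences before the start sites are shown for 3 of the Kupffer cell markers, Cd5l with its high level and Timd4 and Marco with their low and more variable levels. RefSeq promoter sequences of the GRCm38.p6 build were found for 7 of the 10 members, and each line gives the 250 bases before the start of the gene, 5′ to 3′ on the strand of the gene. Capitals mark 2 sets of letters searched on both strands, GAGGAAG (reverse complement CTTCCTC), the core recognized by the myeloid factor PU.1, and TGCTGA (reverse complement TCAGCA), part of the site recognized by MAF factors. The 2 sets do not overlap in these sequences.
Cd5l, chr3:87357631-87357880, plus strand: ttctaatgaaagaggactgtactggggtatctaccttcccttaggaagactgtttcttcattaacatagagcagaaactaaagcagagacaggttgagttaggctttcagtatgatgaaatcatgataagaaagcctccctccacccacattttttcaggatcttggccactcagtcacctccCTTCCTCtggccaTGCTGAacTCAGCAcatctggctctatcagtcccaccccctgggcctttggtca
Timd4, chr11:46810549-46810798, plus strand: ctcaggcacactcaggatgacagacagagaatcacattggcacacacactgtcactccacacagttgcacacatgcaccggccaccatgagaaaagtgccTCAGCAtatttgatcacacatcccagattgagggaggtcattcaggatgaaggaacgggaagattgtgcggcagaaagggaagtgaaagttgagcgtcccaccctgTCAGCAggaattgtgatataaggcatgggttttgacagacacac
Marco, chr1:120505025-120505274, minus strand: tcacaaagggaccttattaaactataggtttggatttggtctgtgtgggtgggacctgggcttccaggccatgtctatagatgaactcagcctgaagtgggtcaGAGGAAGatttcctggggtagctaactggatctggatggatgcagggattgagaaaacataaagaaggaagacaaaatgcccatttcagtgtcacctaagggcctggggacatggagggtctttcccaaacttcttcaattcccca
The PU.1 letters began 67 bases before the start of Cd5l, on the opposite strand, and 146 bases before the start of Marco. The MAF letters began 54 bases before the start of Cd5l and again, on the opposite strand, 46 bases before it. In Timd4 they occurred on the opposite strand 150 and 44 bases before the start. Of the 7 members with a sequence, 2 held the PU.1 letters and 4 the MAF letters, which were also present before Clec4f and C1qb. Among all 32851 mouse promoters of the table, 10.6% held the PU.1 letters and 16.1% the MAF letters within 250 bases, so a match is common and is given as a description of the sequence.

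In GRCm38 coordinates, Clec4f (main transcript ENSMUST00000014686) lies at chr6:83644542-83656187 on the minus strand, Vsig4 (ENSMUST00000050707) at chrX:96247203-96293438 on the minus strand and Cd5l (ENSMUST00000015998) at chr3:87357881-87371073 on the plus strand. Timd4 (ENSMUST00000068877) lies at chr11:46810800-46844332 on the plus strand, and Marco (ENSMUST00000027639) at chr1:120474538-120505024 on the minus strand. Adgre1 (ENSMUST00000086763) occupies chr17:57358691-57483527 and Csf1r (ENSMUST00000025523) chr18:61100598-61132149, both on the plus strand. Cd68 (ENSMUST00000018918) is at chr11:69664213-69666153 on the minus strand. C1qa (ENSMUST00000046285) and C1qb (ENSMUST00000046384) are neighbors on the minus strand of chromosome 4, at chr4:136895917-136898803 and chr4:136880129-136886187. All 10 are protein-coding genes, and a gene value is the sum over its annotated transcripts. A single transcript held nearly all of the counts of most members. The main transcript of Adgre1 held 92.2% of that gene's counts on average, with a range of 80.7% to 100% over the mice, and the main transcript of each other member held at least 96.2% on average.

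All 10 members were measured in every mouse, and the lowest estimated count was 46, for Marco in HF.Ctrl replicate 3. Scaled by transcript length, as transcripts-per-million values (TPM), 4 members stood at the top and were close to each other. The median TPM over 12 mice was 57.6 for Clec4f, 57.0 for C1qa, 50.3 for Cd5l and 48.2 for C1qb. Each of these exceeded the next in 8 of 12 mice, so their order was not fixed. Below them stood Vsig4 at a median TPM of 25.1, Csf1r at 15.8 and Cd68 at 9.25, and each of the 3 was lower than the member above it in 12 of 12 mice. Adgre1 had a median TPM of 7.61 and was below Cd68 in 9 of 12 mice. Timd4 at 4.39 and Marco at 3.998 were lowest, with Timd4 the higher of the pair in 5 of 12 mice. The C1q subunits kept nearly the same ratio in every mouse, since the TPM ratio of C1qa to C1qb ranged only from 1.05 to 1.29. The TPM ratio of Marco to Clec4f, by contrast, varied 8.01-fold between mice. Mice are compared below in counts-per-million units (CPM), with library totals scaled by TMM factors, which balance the libraries on the bulk of their genes.

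**Figure D1:**
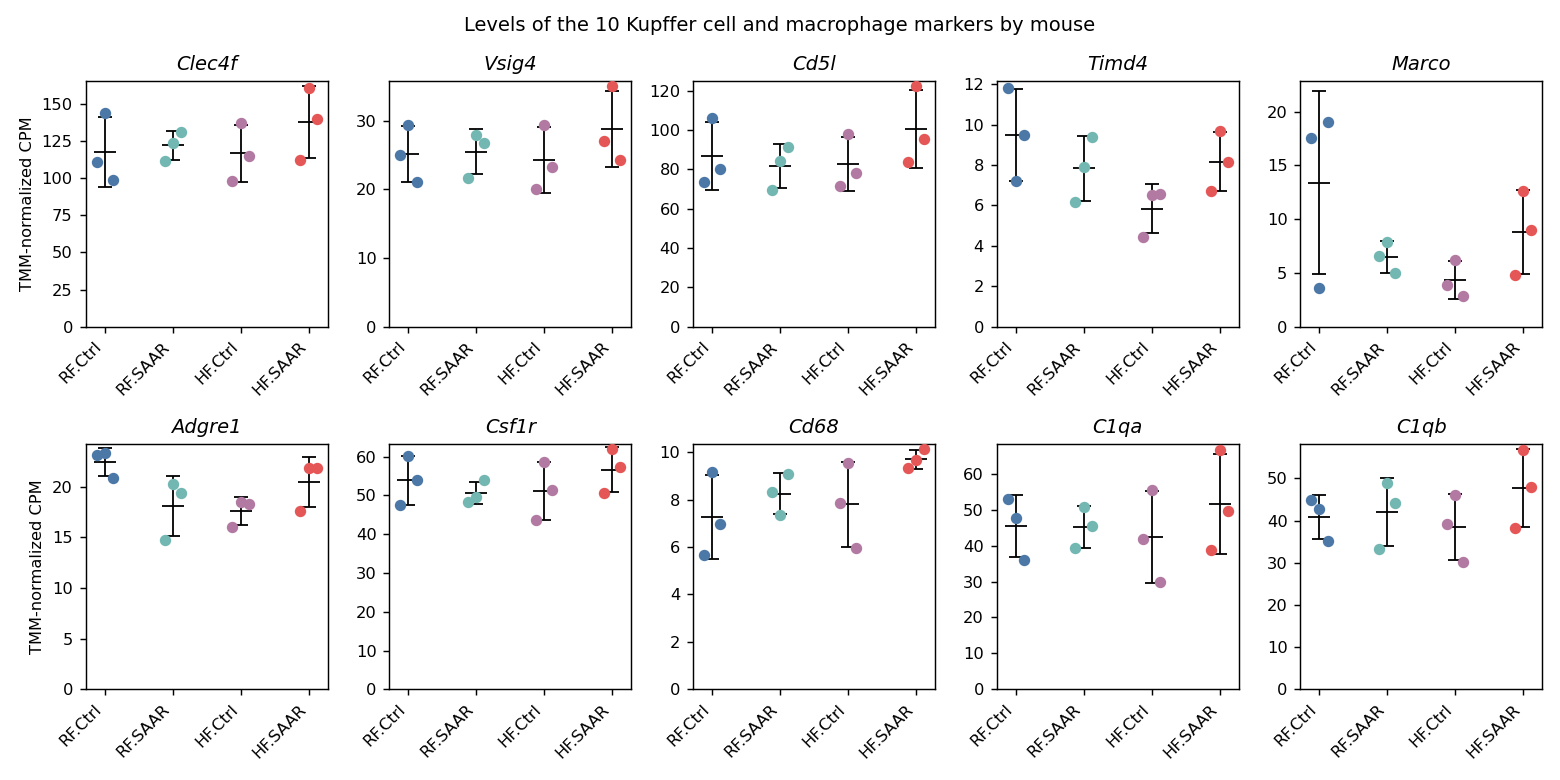
Level (vertical axis, TMM-normalized CPM, starting at 0) of each of the 10 members in the 12 mice, by diet group (horizontal axis). Points are mice, and black bars give the mean and SD of 3 mice. Marco spans 2.80 to 19.0 CPM, a 6.78-fold range and the widest of the 10 as a ratio. The 4 groups lie close together for Clec4f, Vsig4, Cd5l and Csf1r.

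No member was called as different in any comparison between diets. Fold changes come from edgeR's quasi-likelihood test over all 14670 genes, with calls at an adjusted p under 0.05. For RF.SAAR vs. RF.Ctrl, 0 of 10 members were called, where 1.49% of all genes were, and 1 of 10 had an unadjusted p under 0.05, where 13.6% of all genes did. For HF.SAAR vs. HF.Ctrl, 0 of 10 were called beside 1.97% of all genes, and 0 of 10 passed without adjustment beside 12.4% of all genes. With the SAAR and control diets averaged over fat, again 0 of 10 were called, against a background of 6.92%, and 0 of 10 passed without adjustment, against 20.3%. DESeq2 called 0 members in each of these 3 comparisons, with 0 at an unadjusted p under 0.05. The share of members that passed was therefore not above that of all genes in any SAAR comparison. With library size alone in place of TMM factors, 9 of 10 members had an unadjusted p under 0.05 in HF.SAAR vs. HF.Ctrl, all of them higher. Of all genes 18.1% were then higher at that level, and 0 members were called. For SAAR averaged over fat, that scaling gave 6 of 10 members, beside 27.7% of all genes that were higher at that level. There 10 of 10 members were above 0 and 0 were called. Library size alone also moved the median of all genes to 0.17 on the log2 scale in HF.SAAR vs. HF.Ctrl. In that comparison 88.9% of the calls over all genes were then higher, against 51.2% with TMM.

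Clec4f, Vsig4, Cd5l, Timd4 and Marco were taken here as the markers of Kupffer cells, and none was called. The limits on a change were narrow for Clec4f, Vsig4 and Cd5l and wide for Marco. Clec4f, a lectin receptor for galactose-bearing glycans, had 111, 144 and 98.8 CPM in RF.Ctrl replicates 1 to 3, against 112, 124 and 131 in RF.SAAR. On the high-fat diets it had 98.4, 137 and 115 CPM in HF.Ctrl and 113, 161 and 140 in HF.SAAR. In CPM, the groups overlapped in both comparisons. For Clec4f the SAAR effect on the log2 scale was 0.05 (SE 0.17, adjusted p = 0.951, edgeR) on regular fat and 0.24 (SE 0.17, adjusted p = 0.636, edgeR) on high fat. The 95% confidence interval of the ratio ran from 0.808 to 1.33 on regular fat and from 0.921 to 1.51 on high fat, so a doubling or a halving of Clec4f lay outside it on either fat level.

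Vsig4, a receptor that captures complement-coated particles from the blood, had between 20.1 and 35.0 CPM over the 12 mice. The lowest mouse was HF.Ctrl replicate 1 and the highest HF.SAAR replicate 2, as for Clec4f. Its log2 fold change was 0.02 (SE 0.18) for RF.SAAR vs. RF.Ctrl and 0.24 (SE 0.18) for HF.SAAR vs. HF.Ctrl, and neither was called. Cd5l, a protein that macrophages release into the circulation, ranged from 69.3 CPM in RF.SAAR replicate 1 to 122 in HF.SAAR replicate 2. Its log2 fold changes of -0.09 (SE 0.18) on regular fat and 0.28 (SE 0.18) on high fat were also not called. The interval of the Cd5l ratio was 0.722 to 1.23 on regular fat and 0.932 to 1.59 on high fat.

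Timd4, the receptor for phosphatidylserine on dying cells and the marker of long-settled Kupffer cells, was the member with the smallest p in any single comparison. It had 11.8, 7.21 and 9.48 CPM in the RF.Ctrl mice, 6.18, 7.90 and 9.40 in RF.SAAR, 4.44, 6.51 and 6.58 in HF.Ctrl, and 6.70, 9.66 and 8.15 in HF.SAAR. All 3 HF.Ctrl mice were below all mice of RF.Ctrl and all mice of HF.SAAR. The log2 fold change for HF.Ctrl vs. RF.Ctrl was -0.69 (SE 0.23, unadjusted p = 0.00922 by edgeR's quasi-likelihood test), and the adjusted p was 0.9996. For HF.SAAR vs. HF.Ctrl it was 0.48 (SE 0.23, adjusted p = 0.415, edgeR), with an interval of the ratio from 0.992 to 1.96, and for RF.SAAR vs. RF.Ctrl -0.28 (SE 0.22, adjusted p = 0.679, edgeR).

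Marco, a scavenger receptor for bacteria and particles, varied most between mice. It had 17.5, 3.63 and 19.0 CPM in RF.Ctrl, so RF.Ctrl replicate 2 lay far below its group mates. The other groups had 6.56, 7.90 and 4.98 CPM in RF.SAAR, 3.89, 6.23 and 2.80 in HF.Ctrl, and 4.83, 12.6 and 8.996 in HF.SAAR. In CPM, the groups overlapped in every comparison. The log2 fold change was -1.62 (SE 0.59, unadjusted p = 0.0213, adjusted p = 0.9996, edgeR) for HF.Ctrl vs. RF.Ctrl, -1.04 (SE 0.57) for RF.SAAR vs. RF.Ctrl and 1.03 (SE 0.59) for HF.SAAR vs. HF.Ctrl. The interval of the last ratio ran from 0.814 to 5.09, so for Marco these 3 mice a group set only wide limits. Without RF.Ctrl replicate 2, the mouse with 3.63 CPM, the log2 fold change for RF.SAAR vs. RF.Ctrl was -1.49 with an adjusted p of 0.119 (edgeR). Over the 23 alternatives of the processing, that fold change of Marco ran from -1.49 to -0.70.

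Adgre1, an adhesion receptor shared with other macrophages, had 23.1, 23.3 and 20.8 CPM in the RF.Ctrl mice, 14.8, 20.3 and 19.4 in RF.SAAR, 16.04, 18.5 and 18.3 in HF.Ctrl, and 17.6, 21.9 and 21.9 in HF.SAAR. All 3 RF.Ctrl mice were above all mice of RF.SAAR and of HF.Ctrl. Its log2 fold change was -0.31 (SE 0.14, unadjusted p = 0.0412, adjusted p = 0.342, edgeR) for RF.SAAR vs. RF.Ctrl, which is the single unadjusted pass counted above. For HF.Ctrl vs. RF.Ctrl it was -0.35 (SE 0.14, unadjusted p = 0.0230, adjusted p = 0.9996, edgeR), and for HF.SAAR vs. HF.Ctrl 0.22 (SE 0.14, adjusted p = 0.582, edgeR).

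Csf1r, the receptor for CSF1 and IL-34, was the steadiest member. It ranged from 43.7 to 62.0 CPM, with a coefficient of variation of 10.5% over the 12 mice, and its log2 fold change was -0.09 (SE 0.13) for RF.SAAR vs. RF.Ctrl and 0.14 (SE 0.13) for HF.SAAR vs. HF.Ctrl. The interval of its ratio was 0.779 to 1.13 on regular fat and 0.917 to 1.33 on high fat, which on the log2 scale was the narrowest interval of the 10 members on either fat level. Cd68, a glycoprotein of lysosomes, had 5.66, 9.16 and 6.99 CPM in the RF.Ctrl mice, 8.31, 7.37 and 9.09 in RF.SAAR, 7.85, 9.56 and 5.97 in HF.Ctrl, and 9.33, 9.66 and 10.1 in HF.SAAR. All 3 HF.SAAR mice were above all 3 RF.SAAR mice for Cd68. The difference was 0.23 on the log2 scale (SE 0.19, adjusted p = 0.987, edgeR), and it was 0.18 (SE 0.20) for RF.SAAR vs. RF.Ctrl and 0.31 (SE 0.20) for HF.SAAR vs. HF.Ctrl.

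C1qa and C1qb encode subunits of C1q, the recognition part of the first complement component, which macrophages supply. C1qa had 52.9, 47.6 and 35.9 CPM in the RF.Ctrl mice, 39.2, 50.9 and 45.6 in RF.SAAR, 41.8, 55.5 and 30.0 in HF.Ctrl, and 38.8, 66.6 and 49.7 in HF.SAAR. C1qb ranged from 30.2 to 56.7 CPM, lowest and highest in the same mice as C1qa. The log2 fold changes of C1qa were -0.01 (SE 0.24) and 0.28 (SE 0.24), and those of C1qb 0.04 (SE 0.19) and 0.31 (SE 0.19), on regular and on high fat in this order. None was called.

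**Figure D2:**
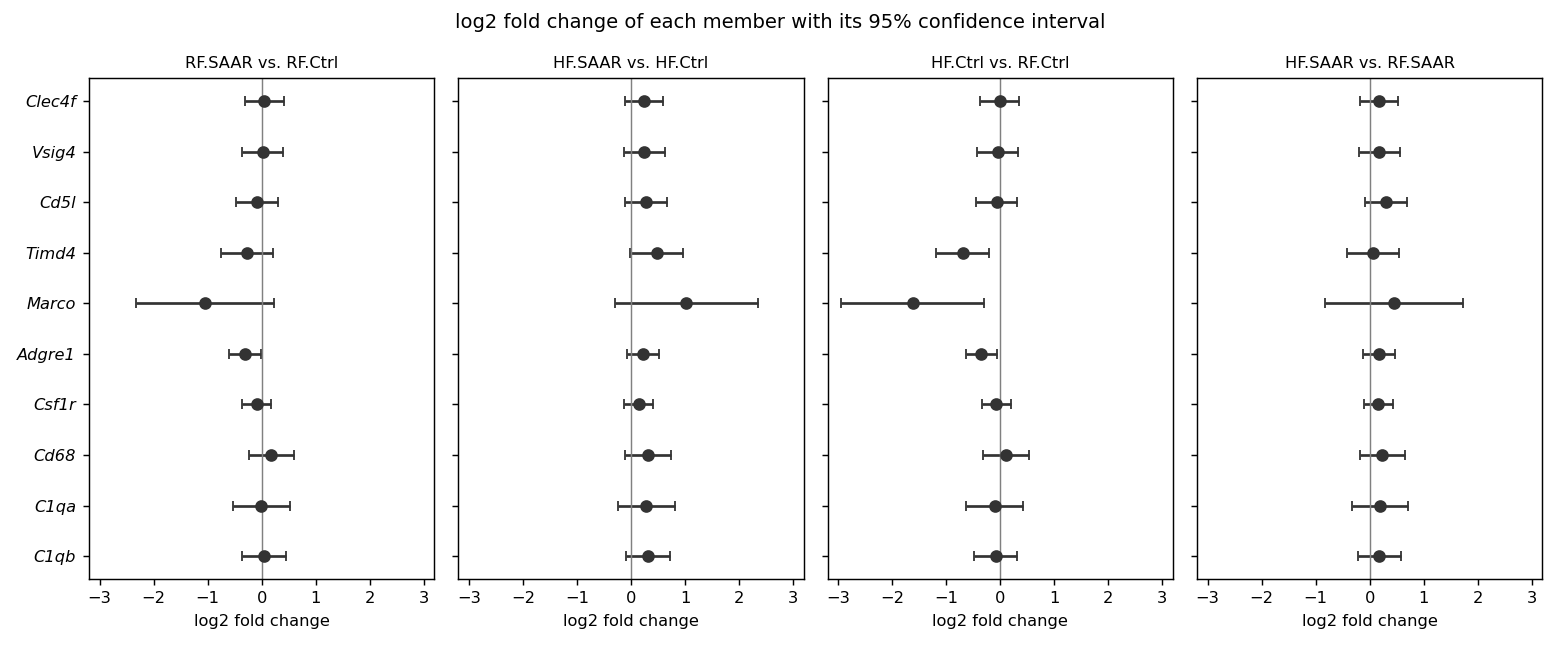
log2 fold change (horizontal axis) of each member (vertical axis) in 4 comparisons, with bars for the 95% confidence interval from edgeR. In HF.SAAR vs. HF.Ctrl all 10 points are above 0 and all 10 intervals include 0; Marco has the widest interval in every panel.

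The direction of the small differences was shared on high fat and mixed on regular fat. In HF.SAAR vs. HF.Ctrl, 10 of 10 members had a log2 fold change above 0, with a median of 0.28, whereas 49.8% of all genes were above 0. Single mice moved that median, to 0.13 without HF.SAAR replicate 2 and to 0.44 without HF.Ctrl replicate 2, with 10 of 10 members still above 0 in both cases. In RF.SAAR vs. RF.Ctrl it was 4 of 10, with a median of -0.05, and with library size alone 7 of 10, as that scaling moved the median of all genes to 0.16. The members share cells and mice, so these counts describe the list and carry no test. In CPM, Timd4 was the 1 of 10 members whose groups did not overlap in HF.SAAR vs. HF.Ctrl, as 17.9% of all genes did not. Adgre1 was the 1 of 10 in RF.SAAR vs. RF.Ctrl, beside 18.2% of all genes. In TPM, which TMM factors do not scale, each member was higher in all 3 HF.SAAR mice than in all 3 HF.Ctrl mice. Clec4f, for example, had 57.0 to 72.9 TPM in HF.SAAR against 42.9 to 51.3 in HF.Ctrl. In RF.SAAR vs. RF.Ctrl, Adgre1 overlapped in TPM and C1qa did not. The share of all genes without overlap in TPM was not computed, so these TPM values have no background. With library size alone, which also leaves out TMM factors, 73.2% of all genes were above 0 in HF.SAAR vs. HF.Ctrl. Summed over the 10 members, the level was 423 ± 46.9 CPM (SD, n = 3) in RF.Ctrl, 408 ± 42.2 in RF.SAAR, 391 ± 64.6 in HF.Ctrl and 470 ± 84.3 in HF.SAAR.

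Between fat levels, 0 of 10 members were called in HF.Ctrl vs. RF.Ctrl, a comparison in which 0% of all genes were called by edgeR. Without adjustment, 3 of 10 members, Timd4, Marco and Adgre1, were lower in HF.Ctrl at p under 0.05, beside 2.05% of all genes that were lower at that level. In CPM, groups did not overlap for Timd4 and Adgre1, 2 of 10, beside 8.51% of all genes. DESeq2 also called 0 members and had 3 at an unadjusted p under 0.05. The count of 3 rested on single mice, since it was 0 without RF.Ctrl replicate 1 and 1 without HF.Ctrl replicate 1. For HF.SAAR vs. RF.SAAR, 0 of 10 were called beside 0.0477% of all genes, 0 of 10 had an unadjusted p under 0.05 beside 5.59%, and Cd68 was the 1 of 10 whose groups did not overlap beside 10.1%. With fat levels averaged over diet, 0 of 10 were called beside 0.0409%, and 0 of 10 had an unadjusted p under 0.05 beside 5.84%. For HF.SAAR vs. RF.SAAR and for the fat levels averaged over diet, DESeq2 called 0 members and had 0 at an unadjusted p under 0.05.

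The difference between the SAAR effect on high fat and that on regular fat was tested as an interaction. No member was called by edgeR or DESeq2, beside 0.00682% of all genes by edgeR. Without adjustment 3 of 10 were above 0 at p under 0.05, beside 1.83% of all genes. These were again Timd4 (0.76 on the log2 scale, SE 0.32, unadjusted p = 0.0338, edgeR), Marco (2.07, SE 0.82, unadjusted p = 0.0312, edgeR) and Adgre1 (0.52, SE 0.19, unadjusted p = 0.0169, edgeR). Their adjusted p was 0.999 in each case. The interaction shares its control mice with the comparisons above and is not separate evidence. All 3 fell short of an unadjusted p of 0.05 once the 3 mice with the highest levels of pancreatic acinar markers, described below, were left out, and the count was 1 without RF.Ctrl replicate 1, RF.Ctrl replicate 3, RF.SAAR replicate 1, HF.Ctrl replicate 1, HF.SAAR replicate 2 or HF.SAAR replicate 3.

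Across the 12 mice some pairs of members moved closely together and others did not. Pearson's r of log2 CPM was 0.91 between Clec4f and Cd5l, 0.86 between Clec4f and Vsig4, 0.92 between Cd5l and Csf1r and 0.95 between C1qa and C1qb. Spearman's rho for these pairs was 0.91, 0.80, 0.92 and 0.92. With the 2 mice farthest from the median of the first gene left out, r was 0.84, 0.71, 0.88 and 0.89. Timd4 had an r of 0.75 with Adgre1 and 0.73 with Marco (rho 0.78 and 0.69, and 0.63 and 0.64 without 2 mice), but 0.29 with Clec4f. These pairs were less stable than those above. After the group means were removed, r was 0.55 between Timd4 and Marco, and 0.37 when 2 mice were also left out. Adgre1 then had an r of 0.65 with Timd4, against 0.71 with Clec4f and 0.71 with C1qb. Without the 2 mice farthest from its own median and with the group means kept, Marco had an r of 0.79 with C1qa and 0.75 with C1qb. Over all 12 mice, Marco had an r of -0.03 with Clec4f and 0.06 with Vsig4. Cd68 and Timd4 had an r of -0.19. Over the 45 pairs the mean r was 0.49, and it was 0.45 after the group means were removed. These correlations are descriptions over 12 mice, and the points share diets, library totals and normalization.

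**Figure D3:**
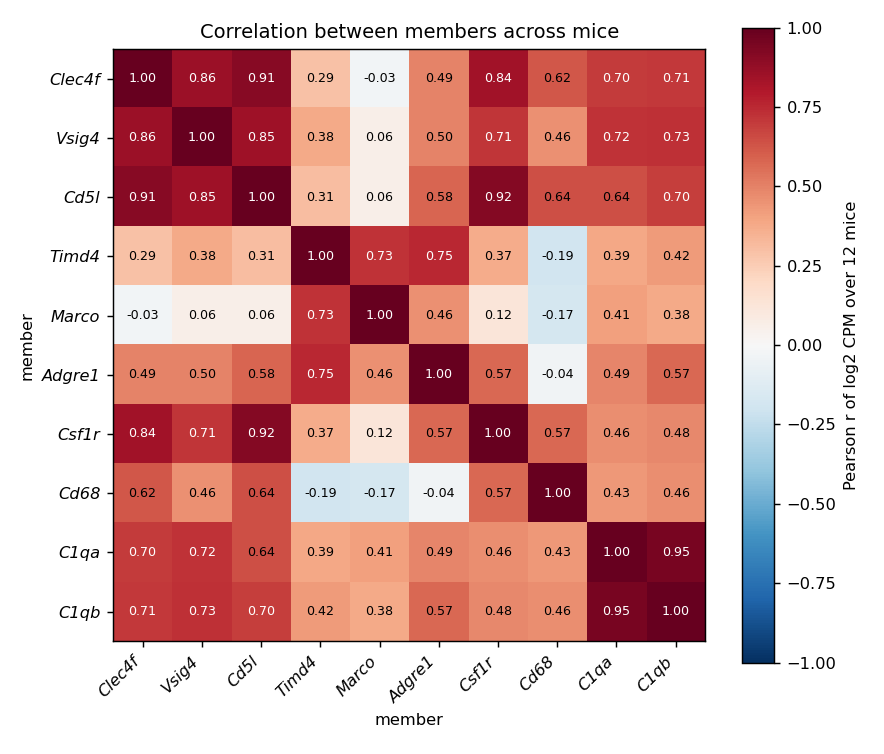
Pearson's r of log2 CPM over 12 mice for each pair of members (both axes), on a color scale from -1 to 1. Clec4f, Vsig4, Cd5l and Csf1r form a block with r of 0.71 or more, C1qa and C1qb reach 0.95, and Timd4 has its highest values with Adgre1 (0.75) and Marco (0.73).

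Likeness to the members as a whole was measured as Pearson's r with the mean of the 10 standardized log2 levels over 12 mice. The 10 nearest were C1qc (0.91), Nsa2 (0.90), Ctss (0.89), Fcna (0.89), Emilin2 (0.88), Otulin (0.87), Pilrb1 (0.87), Pfdn5 (0.86), Folr2 (0.86) and Rpl37 (0.86). C1qc is the remaining C1q subunit, Ctss a lysosomal protease of antigen-presenting cells, Fcna a secreted lectin and Folr2 a folate receptor of resident macrophages. Nsa2, Emilin2, Otulin, Pilrb1, Pfdn5 and Rpl37 are in none of the lists of cell type genes used here. After the group means were removed, Emilin2, Ctss and Fcna were still among the 10 nearest. Phf5a (0.95), Bet1l (0.94) and Mfsd5 (0.94) then led, and they too are in none of those lists. Of 12 further genes of resident Kupffer cells, 9 had an r above 0.5, as had 10 of 22 further macrophage genes and 1 of 8 monocyte genes, beside 9.78% of all other genes. So had 4 of 10 lipid-associated macrophage genes, 2 of 3 neutrophil, 3 of 10 stellate cell and 3 of 33 acinar markers. Of the sinusoidal endothelial markers it was 1 of 11, and of the hepatocyte markers 0 of 7. After the group means were removed, it was 10 of 12 resident Kupffer cell genes and 28 of 33 acinar markers, beside 16.1% of all other genes.

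The mean level of the members also moved with the size of the library. Its r with the total estimated count was 0.85 over 12 mice (rho 0.90), 0.89 without the 2 mice with totals farthest from the median and 0.88 after the group means were removed. By gene, r with the total ranged from 0.21 for Marco and 0.33 for Timd4 to 0.82 for Clec4f, and 8 of 10 members were above 0.5, beside 8.55% of all genes. Total counts were 18722319, 20162590 and 17207527 in RF.Ctrl, 17061599, 18429983 and 17947785 in RF.SAAR, 16203094, 21230092 and 16649996 in HF.Ctrl, and 17710716, 19933360 and 19895587 in HF.SAAR. The HF.Ctrl replicates 1 and 3, with the smallest totals of all, were also the 2 mice with the lowest mean member level. The part of library size in the differences between groups was not tested.

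**Figure D4:**
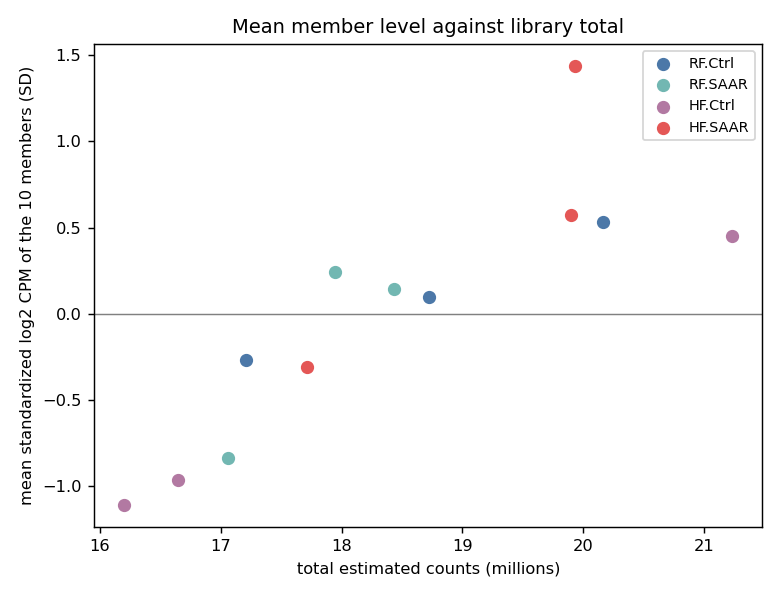
Mean of the 10 standardized log2 levels (vertical axis, in SD) against the total estimated count of the library (horizontal axis), 1 point a mouse, colored by group. Mice with larger totals have higher means, with HF.Ctrl replicate 1 at the lower left (16203094 counts) and HF.SAAR replicate 2 highest.

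Markers of pancreatic acinar cells were high in some livers. The summed level of 33 measured acinar markers was 1786, 84.6 and 90.7 CPM in RF.Ctrl, between 44.2 and 103 in RF.SAAR, 2009, 7748 and 85.0 in HF.Ctrl, and 75.2, 4422 and 19586 in HF.SAAR. Without the 3 mice above 4000 CPM, a choice made after these sums were seen, 10 of 10 members were still above 0 in HF.SAAR vs. HF.Ctrl, but the median fell from 0.28 to 0.13 and 1 HF.SAAR mouse remained, assumed to vary like the other mice. Without the 4 mice above 2000 CPM it was 7 of 10, with a median of 0.14, with 1 mouse left in each high-fat group. In HF.SAAR vs. RF.SAAR the members above 0 went from 10 of 10, with a median of 0.18, to 3 of 10, with a median of -0.09, under either limit. B cell markers summed to 57.5 CPM in HF.SAAR replicate 3 and 39.3 in RF.SAAR replicate 1, against 5.79 to 16.9 elsewhere. Markers of sinusoidal endothelial cells, the neighbors of Kupffer cells, were even, at 423 to 497 CPM in all mice. The part of acinar and B cell markers in the differences of the members was not tested.

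Of 12 other genes of resident Kupffer cells, 0 were called on either fat level alone. Their median log2 fold change with SAAR was 0.14 on regular fat, with 7 of 12 above 0, and 0.38 on high fat, with 10 of 12 above 0. On high fat 4 of 12 had an unadjusted p under 0.05, namely Slc40a1, Il18bp, Hmox1 and Folr2, beside 12.4% of all genes. With SAAR averaged over fat 1 of 12 was called, beside 6.92% of all genes. This was Slc40a1, the iron exporter ferroportin, which rose by 0.33 on the log2 scale (SE 0.08, adjusted p = 0.0229, edgeR). Slc40a1 had 135 ± 6.56 CPM (SD, n = 3) in RF.Ctrl, 158 ± 17.1 in RF.SAAR, 132 ± 15.9 in HF.Ctrl and 179 ± 10.8 in HF.SAAR. It is also made by other liver cells, and its r with the mean member level over 12 mice was 0.32. Cd163, the receptor for haptoglobin-bound hemoglobin, was not called in the same comparison (0.46, SE 0.16, adjusted p = 0.109, edgeR).

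Of 22 further macrophage genes, 0 were called in any of the 7 comparisons, and 20 of 22 were above 0 in HF.SAAR vs. HF.Ctrl with a median of 0.17. The 2 with the smallest p were Maf (0.24, SE 0.10, adjusted p = 0.752, edgeR, for high against regular fat) and Axl (0.22, SE 0.09, adjusted p = 0.196, edgeR, for SAAR averaged over fat). Of the 10 monocyte genes 8 passed the filter and 0 were called. Among them Plac8 had a log2 difference of 0.22 (unadjusted p = 0.113, edgeR) with SAAR averaged over fat. Their summed level stayed low, at 17.1 to 25.1 CPM over all mice, against 347 to 557 CPM for the 10 members. Among the 10 genes of lipid-associated macrophages, Spp1 (osteopontin) fell by 0.46 on the log2 scale (SE 0.09, adjusted p = 0.00767, edgeR) and Cd9, a tetraspanin, rose by 0.45 (SE 0.10, adjusted p = 0.0176, edgeR) with SAAR averaged over fat. In that comparison 6.92% of all genes were called. Spp1 is also a marker of bile duct cells. Trem2, a lipid receptor of such macrophages, had 1.37 ± 0.26 CPM (SD, n = 3) in HF.Ctrl and 2.43 ± 0.42 in HF.SAAR. On the log2 scale Trem2 was 0.82 higher in HF.SAAR (SE 0.28, adjusted p = 0.207, edgeR). The 10 genes of this list were mixed in HF.SAAR vs. HF.Ctrl, with 6 above 0, 4 below 0 and 0 called. Without adjustment 3 were higher and 2 lower at p under 0.05 (edgeR), beside 12.4% of all genes in either direction.

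Genes for CSF1 receptor ligands and for the complement partners of C1q were examined beside the receptor and subunits themselves. On regular fat, the ligand gene Csf1 had 7.64 ± 0.84 CPM (SD, n = 3) in RF.Ctrl and 8.23 ± 0.16 in RF.SAAR. On high fat, Csf1 had 8.83 ± 2.84 CPM in HF.Ctrl and 6.81 ± 2.46 in HF.SAAR. Il34, which encodes IL-34, had 1.42 ± 0.38, 1.89 ± 0.21, 1.44 ± 0.95 and 1.53 ± 0.65 CPM in the same order of groups. Of 6 genes for CSF1 receptor ligands and partners, 0 were called in any comparison, and Grb2, an adaptor protein, had the smallest p (0.14 on the log2 scale, SE 0.07, adjusted p = 0.269, edgeR, for SAAR averaged over fat), followed by Spi1, which encodes PU.1 (0.30, SE 0.17, adjusted p = 0.906, edgeR, for high against regular fat). In the first complement component, the proteases that bind C1q fell with SAAR averaged over fat while the C1q subunits were not called. C1s1 fell by 0.32 (SE 0.06, adjusted p = 0.00823, edgeR), C1ra fell by 0.26 (SE 0.06, adjusted p = 0.0235, edgeR) and Serping1, the inhibitor of both, fell by 0.22 (SE 0.06, adjusted p = 0.0440, edgeR) on the log2 scale. These 3 were called out of 6 genes of the first component and its inhibitor, beside 6.92% of all genes. Their proteins are made mainly by hepatocytes. The fold changes of C1qa and C1qb in the same comparison were 0.14 (SE 0.17) and 0.17 (SE 0.13), and whether they differed from those of the proteases was not tested. Of 10 inflammatory cytokines and chemokines only 3, Il1b, Cxcl10 and Ccl2, passed the filter on low counts, and 0 of these 3 were called. The others were not tested.

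The levels of other liver cell types were set beside these values. With SAAR averaged over fat, 6.92% of all genes were called. Lyve1 was the 1 of 11 sinusoidal endothelial markers called in that comparison (0.55 on the log2 scale, adjusted p = 0.00746, edgeR). Lrat was the 1 of 10 stellate cell markers (-0.59, adjusted p = 0.0177, edgeR) and Serpina1c the 1 of 7 hepatocyte markers (-0.52, adjusted p = 0.000522, edgeR). Of 5 erythroid markers, Alas2, the first enzyme of heme synthesis in red cell precursors, fell by 1.15 (adjusted p = 9.02e-06, edgeR). Alas2 and Serpina1c were also called on either fat level alone, and Lrat on regular fat. Serpina1c has near-identical copies, so its counts are uncertain. The 5 erythroid markers had summed levels (CPM) of 594 to 672 in RF.Ctrl livers, 318 to 393 in RF.SAAR, 444 to 468 in HF.Ctrl and 243 to 553 in HF.SAAR, and their part in the member values was not tested. Of 5 measured bile duct markers only Spp1 was called, and 0 of 6 T and NK cell, 0 of 5 B cell, 0 of 3 neutrophil, 0 of 5 dendritic cell and 0 of 33 acinar markers were called.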

How the data were processed

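Estimated counts, TPM and effective lengths per transcript were deposited for each of 12 livers. Per the study's methods the authors prepared poly(A) libraries, trimmed read pairs with cutadapt and obtained transcript estimates by kallisto pseudoalignment to Ensembl mouse transcripts. As deposited, estimated counts are not normalized between mice. The deposited TPM values, made by the authors, are scaled by length to a fixed sum. Group labels were read from 2 tags whose names appear exchanged. The 10 members and all gene lists were chosen with earlier results of these data known.

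Transcript identifiers were joined to GENCODE gene models, GRCm38 build (116816 of 118489 matched, the rest holding 1.08% of counts), and estimated counts were summed per gene and rounded. Genes were filtered with filterByExpr and tested with edgeR 4.0.16 in R 4.3.3 (TMM, robust quasi-likelihood fit with a coefficient for each of 4 groups, Benjamini-Hochberg adjustment over 14670 genes). Intervals are at 95% from the same fit. Totals were 16203094 to 21230092 counts a mouse and the biological coefficient of variation common to all genes was 0.215. The steps were tested on simulated data. Genes were named as follows: all members, genes of the other lists called in any comparison or else those with the smallest p, and the 10 genes most like the members, with Cd163, Trem2, Il18bp and Hmox1 added after their values were seen. For uncalled lists of other cell types only counts are given. One gene that this rule names is not reported here. DESeq2 1.42.0, other scalings, filters, length offsets, single transcripts and leaving out mice were the alternatives. Mice are separate animals, and replicate numbers are used here only to name them.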

Additional observations from a re-analysis of the deposited data

How the results depend on the processing

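No member was called in any of the 7 comparisons under any of the 23 alternatives, and the lowest adjusted p was 0.0501 (C1qb, library size alone, SAAR averaged over fat). Over the 70 member values and their alternatives, 102 of 1580 signs turned, each of them of a value that was not called. For RF.SAAR vs. RF.Ctrl, library size alone gave 0.0739 for Cd5l, 0.0729 for Csf1r and 0.154 for C1qa, while DESeq2 gave 0.0013 and RLE factors 0.00024 for C1qa. Library size alone moved the median of all genes by 0.16, and the cause of the other turns was not tested. Without the mice above 2000 CPM of acinar markers, HF.SAAR vs. HF.Ctrl gave -0.0521 for Clec4f, -0.0769 for Adgre1 and -0.0422 for Csf1r. Leaving out 1 mouse at a time, values for RF.SAAR vs. RF.Ctrl ran from -0.063 to 0.222 for Clec4f, from -0.0944 to 0.143 for Vsig4, from -0.192 to 0.0866 for Cd5l, from -0.152 to 0.114 for C1qa and from -0.0823 to 0.185 for C1qb. In HF.SAAR vs. HF.Ctrl, members with an unadjusted p under 0.05 numbered 4 without HF.Ctrl replicate 2, 3 without HF.SAAR replicate 1 and 2 without RF.Ctrl replicate 2, and the lone pass in RF.SAAR vs. RF.Ctrl was lost without RF.Ctrl replicate 1 or RF.SAAR replicate 1. DESeq2 called 591 genes against 218 for RF.SAAR vs. RF.Ctrl, 595 against 289 for HF.SAAR vs. HF.Ctrl, 85 against 7 for HF.SAAR vs. RF.SAAR, 31 against 0 for HF.Ctrl vs. RF.Ctrl, 16 against 1 for the interaction and 124 against 6 for fat averaged over diet, edgeR second. No paired analysis was run, because the labels name no pairs or blocks and the replicate numbers follow accession order. Replicate 2 had the largest library total in every group, and whether replicate numbers mark a shared block was not tested. Counts were lowest for Timd4, Cd68 and Marco, with at most 206, 215 and 313 in any mouse, and the part of counting error in their spread was not separated.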
